A study of Mus musculus with 4 samples.

Results

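The 10 genes described here encode the parts that a skeletal muscle fibre uses to turn an action potential into a pulse of calcium: Cacna1s, Cacng1, Ryr1, Jph2, Trdn, Casq1, Casq2, Hrc, Atp2a1 and Sln. They were chosen by name, and all transcript rows of a gene were summed, which gave 28 of the 75959 mRNA transcripts and 10 of the 21878 genes listed. Of the 4295 circRNAs listed, 1 had a member of the group as its host gene. The RNA came from C3H10T1/2, a mouse mesenchymal stem cell line, without treatment (replicates 1 and 2) or treated with 20 μM 5-AZA for 72 hours and then kept for 21 days in fresh medium (replicates 101 and 102). 5-AZA stands for 5-azacytidine, an analogue of cytidine with the effect of lowering DNA methylation. The labels name no transgene or engineered allele. How long the untreated cells were cultured is not given, so 5-AZA and time in culture cannot be told apart. The study speaks of biological repeats, but nothing in the labels says that they came from separate cultures, and the p-values measure the spread between these samples, which may be technical.

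In a skeletal muscle fibre, the L-type calcium channel in the transverse tubule senses the voltage and opens the ryanodine receptor in the facing membrane of the sarcoplasmic reticulum. Junctophilin holds these membranes together, triadin links the ryanodine receptor to calsequestrin inside the store, and calsequestrin and the histidine-rich calcium binding protein hold the stored calcium. The pump encoded by Atp2a1 returns calcium to the store, and sarcolipin, a small membrane peptide, restrains the pump.

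Levels are given in FPKM, fragments scaled to transcript length and to library size, so that genes of different length can be set side by side. A gene was called where the limma fit on log2(FPKM + 0.1) over all genes gave an adjusted p below 0.05 and a change of more than 2-fold. Because of the added 0.1 FPKM, a log2 change understates the change of a gene with a low level, and for a gene listed at 0 in untreated cells it depends on that addition and is no bound. The deposited mRNA values summed to 328410 to 361664 FPKM a sample. The steps of the circRNA values corresponded to 92903364 to 93920706 reads a library where the smallest value is taken as 2 reads. On that reading, circRNA junction reads were 13282 and 13388 in untreated replicates 1 and 2. They were fewer, 10905 and 10448, in 5-AZA replicates 101 and 102. The number of fragments behind an FPKM value is unknown.

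Promoters of the group are shown first, for members whose stretch before the start holds the hexamer CAGCTG and for Ryr1, whose stretch holds none. Casq2, which is not shown, also holds none. The log2 change was 6.47 for Casq2, 3.23 for Ryr1 and 4.17 to 7.14 for the members with the hexamer. A relation between the hexamer and the change was not tested. CAGCTG is one spelling of the E-box, CANNTG, the kind of element that MyoD family factors are known to bind. RefSeq (GRCm38.p6) gave a promoter for 7 of the 10 genes, and the table held none for Cacng1, Trdn and Sln. The stretches below run 5′ to 3′ up to the outermost annotated start of the gene and overlap no annotated gene, with CAGCTG in capitals. They are Cacna1s at chr1:136052561-136052805 (+ strand), Casq1 at chr1:172219896-172220145 (− strand), Hrc at chr7:45335019-45335268 (+ strand), Atp2a1 at chr7:126463104-126463323 (− strand) and Ryr1 at chr7:29125180-29125401 (− strand).
Cacna1s: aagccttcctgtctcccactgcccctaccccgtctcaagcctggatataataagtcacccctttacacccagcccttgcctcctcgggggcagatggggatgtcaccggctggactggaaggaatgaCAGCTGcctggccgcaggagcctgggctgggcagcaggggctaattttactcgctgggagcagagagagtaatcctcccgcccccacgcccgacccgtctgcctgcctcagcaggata
Casq1: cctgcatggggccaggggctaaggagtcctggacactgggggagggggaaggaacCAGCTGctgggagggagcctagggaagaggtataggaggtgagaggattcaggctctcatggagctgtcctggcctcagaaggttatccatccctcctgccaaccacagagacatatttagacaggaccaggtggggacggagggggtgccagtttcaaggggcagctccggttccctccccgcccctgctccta
Hrc: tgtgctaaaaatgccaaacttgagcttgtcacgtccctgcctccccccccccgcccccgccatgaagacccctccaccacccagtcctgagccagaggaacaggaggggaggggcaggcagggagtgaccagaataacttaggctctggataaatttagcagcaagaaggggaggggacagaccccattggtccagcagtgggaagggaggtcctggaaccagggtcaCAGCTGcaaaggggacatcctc
Atp2a1: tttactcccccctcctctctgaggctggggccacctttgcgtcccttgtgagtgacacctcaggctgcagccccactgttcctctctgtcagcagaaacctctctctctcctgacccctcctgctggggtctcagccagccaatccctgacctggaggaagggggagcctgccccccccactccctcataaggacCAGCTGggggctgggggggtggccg
Ryr1: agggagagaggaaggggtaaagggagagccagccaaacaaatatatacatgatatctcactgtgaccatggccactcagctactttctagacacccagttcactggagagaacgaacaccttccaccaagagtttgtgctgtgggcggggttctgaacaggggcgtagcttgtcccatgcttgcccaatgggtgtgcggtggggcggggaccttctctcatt

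The first base of CAGCTG lay 123 bases before the start used by RefSeq in Cacna1s, 195 in Casq1, 22 in Hrc and 55 in Atp2a1, and 9 or 29 in the alternative starts of Jph2, where it falls inside the annotated span of the gene and is not shown. Over windows of 250 bases before to 50 bases after each start, both strands being read at once because the hexamer is its own reverse complement, CAGCTG was found in 5 of the 7 genes, against 16.3% of all 32851 promoters and 20.5% of the promoters of genes called higher. Of the skeletal muscle marker genes with a promoter, 4 of 7 held it. CANNTG, which counts every CAGCTG again, was in 6 of the 7 genes and in 72.3% of all promoters. The spelling CAGGTG or its reverse complement was in 1 of the 7, Casq1, and in 20.2% of all promoters. The MEF2 element was searched in a palindromic spelling only, read on both strands at once, which was in 0 of the 7 and in 3.69% of all promoters. Other spellings of the MEF2 element were not searched, so the 0 does not show that these promoters lack it. With a promoter for 7 of 10 genes, under 80% of the group, a check of GC content or CpG number over the group is void. The motif counts rest on the same 7 genes, describe these alone and support nothing further.

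After 5-AZA, 9 of the 10 genes were higher, from 3.23 on the log2 scale for Ryr1 to 7.14 for Casq1, and Sln did not pass the test. Of all 13199 genes tested, 13.1% were called higher and 1.32% lower, so that 90.8% of the calls were higher, against 54.0% under quantile normalization. The median log2 change of the 10 genes was 4.80, and that of all genes tested was 0.05, with the middle 95% of genes between -0.86 and 3.73. Every member but Casq2, with an untreated mean of 0.110 FPKM, passed the limit of 0.1 FPKM through its 5-AZA values alone. The count and the median therefore describe the group and support nothing further. The lowest 5-AZA value was above the highest untreated value in 9 of the 10 genes, as in 36.8% of the genes tested. In bulk RNA, a larger number of muscle-like cells and more RNA per cell cannot be told apart. No permutation of 2 against 2 samples can give a p below 0.333.

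**Figure D1:**
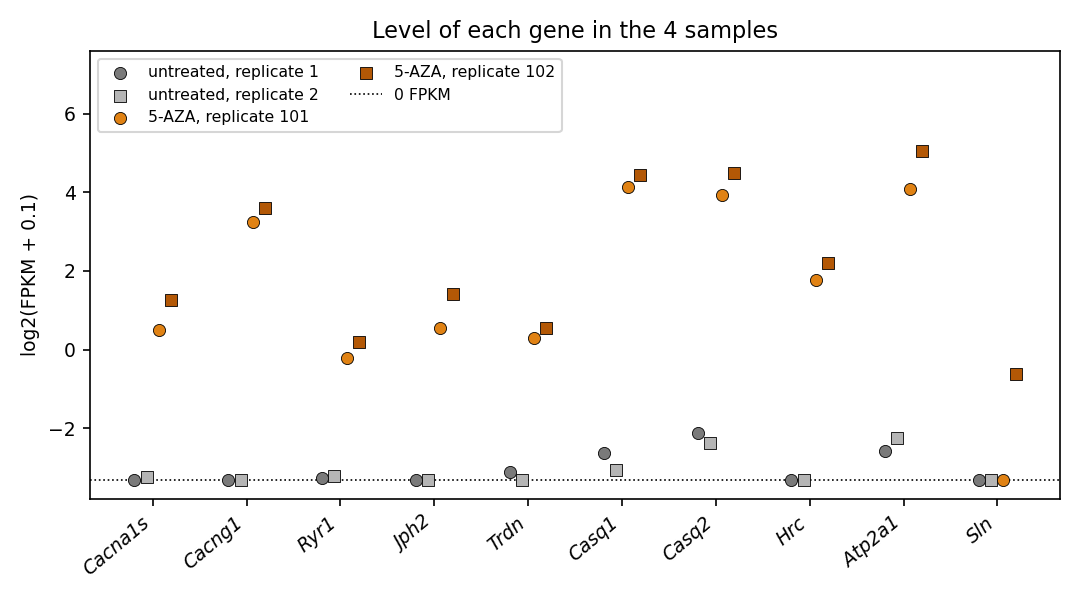
Level of each of the 10 genes in each sample, as log2(FPKM + 0.1), with 1 point per sample and the dotted line at 0 FPKM. In 9 genes both 5-AZA points lie above both untreated points, and in Sln the point of replicate 101 lies at 0 with the untreated points.

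**Figure D2:**
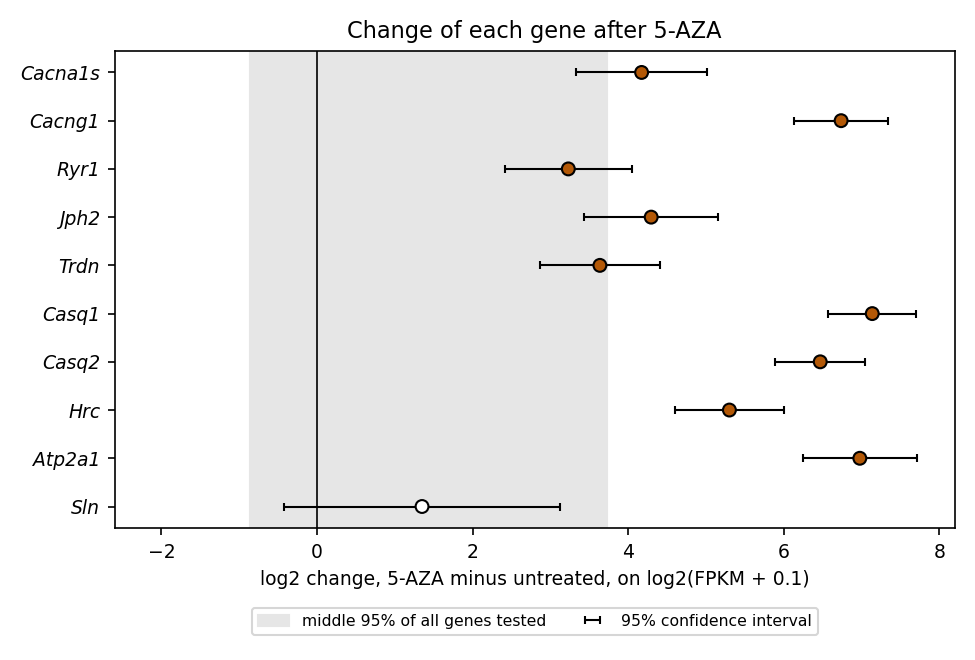
Log2 change (5-AZA minus untreated, on log2(FPKM + 0.1)) of each gene, with its 95% confidence interval from limma; filled points were called. The grey band is the middle 95% of all genes tested, from -0.86 to 3.73, and the point of 7 of the 10 genes lies to its right.

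The voltage sensor was close to 0 in untreated cells. Cacna1s, which encodes the voltage-sensing pore subunit of the L-type channel, had 0 and 0.00502 FPKM in untreated replicates 1 and 2 and 1.32 and 2.31 FPKM in 5-AZA replicates 101 and 102. The groups did not overlap, and the log2 change was 4.17 ± 0.37 (SE; limma, adjusted p = 6.437e-05). Cacng1, the gamma subunit of the same channel, was listed at 0 in both untreated samples and at 9.32 and 12.01 FPKM in the 5-AZA samples. Its log2 change was 6.74 ± 0.26 (SE; limma, adjusted p = 8.157e-07). Per length, Cacng1 was 7.08 and 5.19 times as high as Cacna1s in replicates 101 and 102.

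The release channel and the proteins that place it stayed at or below 2.54 FPKM in every sample. Ryr1, the release channel of the sarcoplasmic reticulum, had 0.00345 and 0.00804 FPKM in untreated cells and 0.763 and 1.04 FPKM after 5-AZA. The untreated samples were thus both near 0, and the log2 change was 3.23 ± 0.36 (SE; limma, adjusted p = 2.404e-04). With 1 FPKM added in place of 0.1, the change of Ryr1 was 0.92 on the log2 scale, under the limit of 2-fold. Jph2, the junctophilin that joins the membranes, was listed at 0 in both untreated samples and had 1.37 and 2.54 FPKM after 5-AZA. Its log2 change was 4.30 ± 0.38 (SE; limma, adjusted p = 6.199e-05). Trdn, the triadin that anchors calsequestrin at the release channel, had 0.0162 and 0 FPKM in untreated cells and 1.12 and 1.37 FPKM after 5-AZA, with a log2 change of 3.64 ± 0.34 (SE; limma, adjusted p = 8.804e-05). Jph2 and Trdn were without overlap between the groups as well.

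The calcium binding proteins of the store showed some of the largest changes of the group. Casq1, the calsequestrin of fast fibres, whose promoter carries CAGCTG farthest from the start, had 0.0599 and 0.0201 FPKM in untreated cells and 17.6 and 21.5 FPKM after 5-AZA. Both 5-AZA samples were far above both untreated ones, the log2 change was 7.14 ± 0.25 (SE; limma, adjusted p = 4.687e-07), and Casq1 ranked 20 of 13199 genes by log2 change. Casq2, the calsequestrin of the heart and of slow fibres, had 0.128 and 0.0915 FPKM in untreated cells and 15.1 and 22.4 FPKM after 5-AZA. Its log2 change was 6.47 ± 0.25 (SE; limma, adjusted p = 8.225e-07). Hrc, the histidine-rich calcium binding protein of the store, was listed at 0 in both untreated samples and at 3.28 and 4.51 FPKM after 5-AZA. The groups did not overlap in any of the 3 genes, and the log2 change of Hrc was 5.30 ± 0.31 (SE; limma, adjusted p = 5.895e-06).

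The pump and its small inhibitor differed. Atp2a1, the calcium pump of fast fibres, had 0.0661 and 0.112 FPKM in untreated cells and 16.9 and 32.9 FPKM after 5-AZA. It had the highest mean of the group and the widest gap between the 5-AZA samples, a log2 change of 6.98 ± 0.32 (SE; limma, adjusted p = 1.928e-06) and rank 27 of 13199. Sln, sarcolipin, was listed at 0 in both untreated samples and in 5-AZA replicate 101, and at 0.551 FPKM in replicate 102. The groups overlapped, and the log2 change of 1.35 ± 0.78 (SE; 95% interval -0.43 to 3.13; limma, adjusted p = 0.259) was not called. Without 5-AZA replicate 101 the change of Sln was 2.70 with an adjusted p of 0.0168 (limma), which then rested on replicate 102 alone.

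Ordered by mean level after 5-AZA (SD, n = 2), Atp2a1 had 24.9 ± 11.4 FPKM, Casq1 19.5 ± 2.78, Casq2 18.8 ± 5.16, Cacng1 10.7 ± 1.90, Hrc 3.90 ± 0.864, Jph2 1.95 ± 0.829, Cacna1s 1.82 ± 0.705, Trdn 1.25 ± 0.175, Ryr1 0.903 ± 0.198 and Sln 0.275 ± 0.390. The ranges of the 5-AZA samples overlapped between neighbours for Atp2a1 and Casq1, Casq1 and Casq2, Jph2 and Cacna1s, and Cacna1s and Trdn. The pump and the calsequestrins therefore lay together at the top, and the pore subunit, junctophilin and triadin together below. Per length, Atp2a1 was 22.1 and 31.6 times as high as Ryr1 in replicates 101 and 102, and Cacna1s was 1.73 and 2.22 times as high as Ryr1.

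Replicate 102 was above replicate 101 in all 9 members with a level above 0 in both, by 1.22 to 1.95 times with a median of 1.37. Of the genes with a mean of at least 1 FPKM in the 5-AZA samples, 76.8% were higher in replicate 102, with a median ratio of 1.11. The sum of the 10 genes went from 66.7 FPKM in replicate 101 to 101 FPKM in replicate 102, and was 0.273 and 0.236 FPKM in the untreated samples. The skeletal muscle markers moved alongside: all 10 of 10 were called higher, and their sum was 1.83 and 1.37 FPKM in untreated cells against 940 and 1425 FPKM after 5-AZA, with Mylpf, a fast myosin light chain, the highest. The 10 genes made 7.10% of that marker sum in each of the 5-AZA samples. Gene by gene the proportion was not fixed. The ratio of replicate 102 to 101 had a median of 1.53 over the markers (range 1.40 to 2.39), against 1.37 over the members. Adipocyte markers rose between these samples as well, from a sum of 1135 FPKM in replicate 101 to 1560 FPKM in replicate 102.

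Markers of other cell types were measured beside these results, and their part in them was not tested. Of the 10 cardiac muscle markers, 4 were tested and 2 were called higher. The sum of the 10 was 2.45 to 2.54 FPKM in untreated cells and 4.16 to 6.65 FPKM after 5-AZA. Gata4 was the highest by mean and was not called (log2 change 0.21). Nppa, Nppb, Myl7, Tbx5 and Hand2 were listed at 0 in every sample. Adipocyte markers were higher in 6 of 7, with sums of 30.3 to 46.2 FPKM in untreated cells and 1135 to 1560 FPKM after 5-AZA, led by Fabp4, a fatty acid carrier. Of the 6 smooth muscle markers, 5 were tested and 2 were higher, with sums of 196 to 200 FPKM and 218 to 301 FPKM. Acta2 was the highest and was not called. Of the 6 osteoblast markers, 3 were tested and 2 were higher, with sums of 131 to 141 FPKM and 387 to 446 FPKM. Spp1 was the highest and Ibsp was at 0. Of the 6 chondrocyte markers, 5 were tested, 4 were lower and 1 was higher. Their sums were 105 to 118 FPKM and 20.2 to 31.2 FPKM, led by Col2a1. Neuron markers were called in 0 of 6, with sums of 9.17 to 9.52 FPKM and 9.28 to 9.55 FPKM, Map2 the highest, Snap25 at 0 and an unadjusted p below 0.05 in limma for 1 of the 3 tested. Of the 6 immune markers, 1 was tested and was higher, with sums of 1.17 to 1.502 FPKM and 2.47 to 3.75 FPKM. Cd68 was the highest and Cd3e was at 0. Markers of the labelled mesenchymal line summed to 3914 to 3984 FPKM in untreated cells and 3237 to 3523 FPKM after 5-AZA. Vim was the highest, and Thy1 was the 1 of 10 called higher. Thy1 and Eng, which mark mesenchymal stem cells, were at most 1.72 FPKM in untreated cells, and Nt5e was listed at 0 there. Each other marker of this list had at least 25.5 FPKM in untreated cells, the lower value of Pdgfra. Ly6a had 186 and 181 FPKM there.

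The share that a gene of the group held in its family differed between the families. Atp2a1 made 0.167% and 0.305% of the summed FPKM of the Atp2a pumps in untreated replicates 1 and 2 and 25.1% and 34.5% in 5-AZA replicates 101 and 102. Atp2a2, the pump found in most cells and in slow muscle, was the larger part in every sample, with 39.3 and 36.3 FPKM in untreated cells and 49.5 and 61.4 FPKM after 5-AZA. Casq1 made 53.7% and 49.0% of the calsequestrins after 5-AZA, so that Casq1 and Casq2 stood near parity, with Casq1 1.16 and 0.959 times Casq2. Ryr1 made 97.5% and 98.3% of the ryanodine receptors, Jph2 91.3% and 94.3% of the junctophilins, and Cacna1s 87.7% and 88.8% of the L-type pore subunits Cacna1s, Cacna1c and Cacna1d. The share of Atp2a1 did not overlap between the groups, and the exact two-sided permutation test gave p = 0.333 (adjusted p = 0.444 over the 4 shares computed), the smallest p that 2 against 2 samples allow. In untreated cells the summed levels of the calsequestrins (0.188 and 0.112 FPKM), of the L-type pore subunits (0.0672 and 0.0351 FPKM) and of the ryanodine receptors (0.00345 and 0.00904 FPKM) were so close to 0, and those of the junctophilins at 0, that their untreated shares carry no weight and are not compared with those after 5-AZA. With curated transcripts alone, the mean share of Atp2a1 after 5-AZA was 10.4%, and that of Ryr1 was 78.3%.

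**Figure D3:**
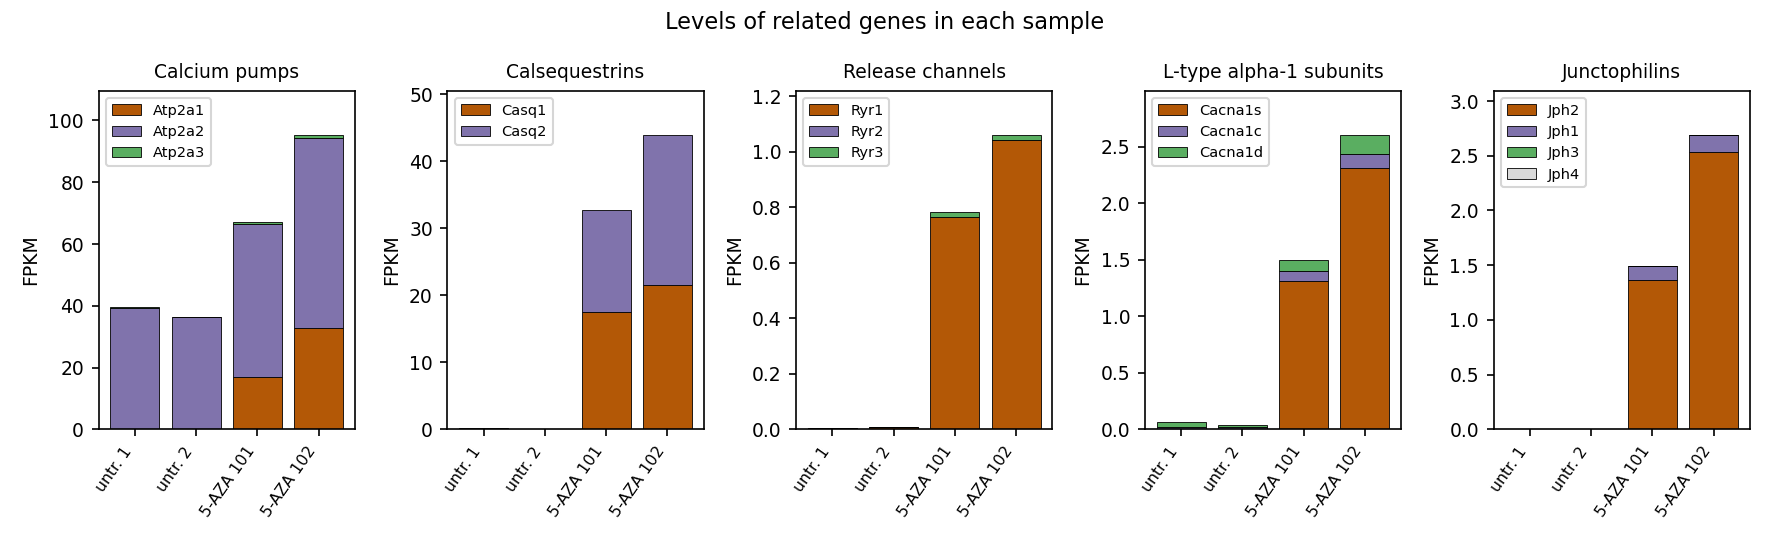
Stacked levels in FPKM of the calcium pumps, calsequestrins, release channels, L-type pore subunits and junctophilins in each of the 4 samples, with 1 colour per gene and a separate axis per family. The pump family is mostly Atp2a2 in all 4 samples, with 16.9 and 32.9 FPKM of Atp2a1 added after 5-AZA, while the release channels and junctophilins are near 0 before and almost entirely Ryr1 and Jph2 after.

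The other genes of calcium handling were taken from 8 lists, and they did not move as a block. Of the triad partners, proteins that build or serve the junction, 20 of 22 were tested, 11 were called higher and 0 were called lower. Their median log2 change was 1.47. Cav3, the caveolin of muscle, was listed at 0 in both untreated samples and at 4.30 and 6.89 FPKM after 5-AZA, a log2 change of 5.79 ± 0.32 (SE; limma, adjusted p = 4.893e-06). Trim72, a membrane repair protein, changed by 5.29, Srl, the sarcalumenin of the store, by 4.60, and Ank1, a membrane adaptor, by 3.96 on the log2 scale. Stac3, which the voltage sensor needs to reach and work at the junction, was named after its values were seen: it had 0.0601 and 0.139 FPKM in untreated cells and 1.77 and 2.73 FPKM after 5-AZA, a log2 change of 3.55. Without 5-AZA replicate 101 or 102 the calls among the triad partners were 7 and 6, and Stac3 had adjusted p-values of 0.0525 and 0.0640 (limma).

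Among relatives used mainly outside skeletal fibres, 3 of 14 were high enough to test. Atp2a3 was called, with 0.214 and 0.124 FPKM in untreated cells and 0.815 and 1.07 FPKM after 5-AZA, a log2 change of 1.97. Atp2a2 differed by 0.54 and Cacnb3, a channel beta subunit, by 0.27 on the log2 scale, both under 2-fold. Of the small pump regulators, Mrln, which encodes myoregulin, was called at 2.56 on the log2 scale, and Pln, phospholamban, had 0 and 0 against 0.142 and 0.118 FPKM, below the limit for testing. Strit1, Arln and Erln were not analysed here. Without either 5-AZA replicate in turn, neither Atp2a3 nor Mrln was called.

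In the calcium store that all cells have, the levels of the general calcium binders stayed close between the groups. The 10 general calcium binders of the endoplasmic reticulum, calreticulin (Calr) among them, gave 0 calls at an adjusted p below 0.05 with a change over 2-fold, and log2 changes between -0.37 and 0.33 with a median of 0.04. In limma 3 of these 10 had an unadjusted p below 0.05 and 2 an adjusted p below 0.05. Of 8 genes of store-operated entry and IP3 receptors, Itpr1 (1.38) and Orai2 (1.13) were called higher and Itpr3 (-1.24) lower on the log2 scale. Itpr3, an IP3 receptor, had 15.4 and 15.5 FPKM in untreated cells and 6.08 and 6.93 FPKM after 5-AZA. Without 5-AZA replicate 101, and likewise without 102, 1 of these 3 calls was left.

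For calcium exit, buffers and calmodulin kinases, 14 of 17 genes were tested, 4 were called higher and 0 lower. Pvalb, the parvalbumin that buffers calcium in fast fibres, had 0.0521 and 0 FPKM in untreated cells and 21.3 and 34.1 FPKM after 5-AZA, a log2 change of 7.78 ± 0.31 (SE; limma, adjusted p = 8.225e-07) that exceeded that of every one of the 10 genes. Atp2b4, a pump of the plasma membrane, changed by 3.10 and the kinases Camk2a and Camk2b by 1.64 and 1.29 on the log2 scale. Under quantile normalization the difference of Camk2b turned to -0.16. Without 5-AZA replicate 101, and likewise without 102, 2 genes of this list were called. Of 7 genes of mitochondrial calcium uptake, Mcub, a subunit that lowers uptake, was called at 2.02 on the log2 scale, and the other 6 were not called. Of 10 genes of fibre excitability, 7 were tested, 1 was called higher and 1 lower. The lower one was Kcnj2, an inward rectifier channel, at -1.68 on the log2 scale. Without 5-AZA replicate 101 and 102 in turn, the log2 change was -1.78 and -1.57 for Kcnj2 and 2.03 and 2.02 for Mcub. Neither gene was called in either fit. Kcnj2 was also not called without a filter on low values (limma, adjusted p = 0.0603).

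**Figure D4:**
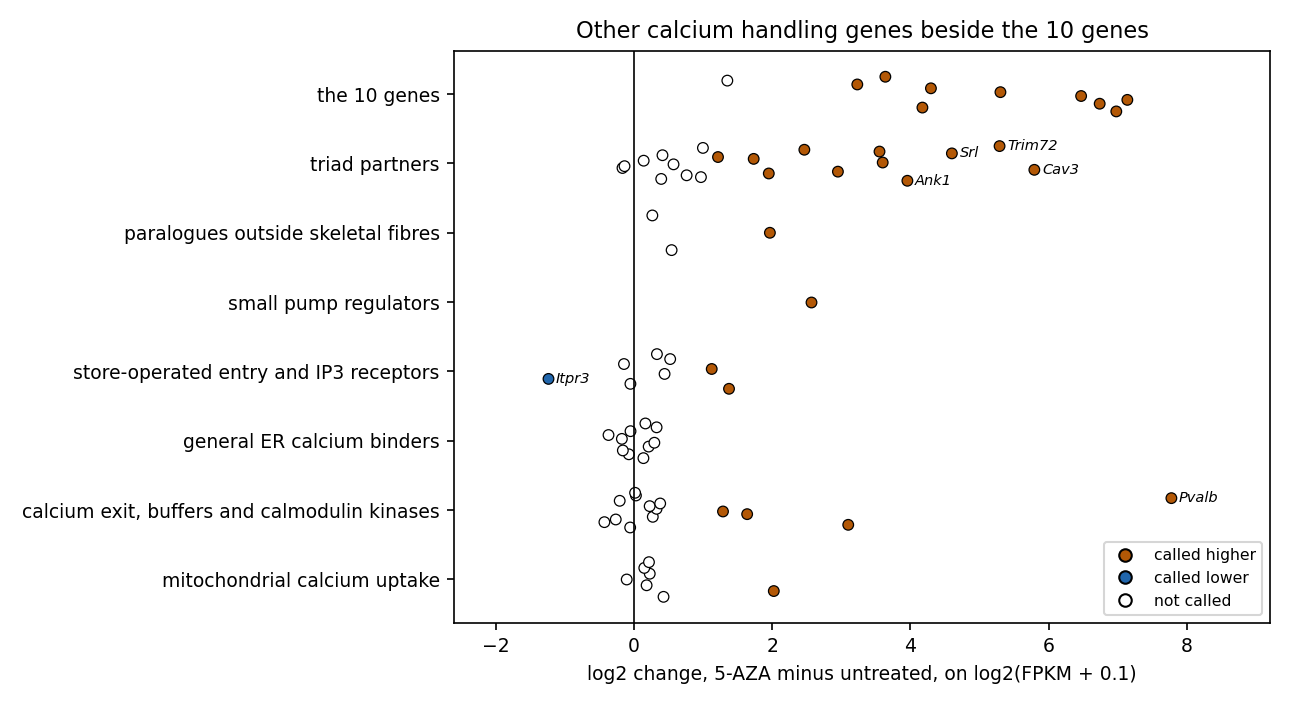
Log2 change (5-AZA minus untreated, on log2(FPKM + 0.1)) of each tested gene, in rows by list, with filled points for called genes; the excitability list is not drawn. The row of the 10 genes runs from 1.35 to 7.14, the general ER calcium binders stay between -0.37 and 0.33, and Pvalb lies farthest right at 7.78.

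By transcript, 14 of the 28 rows of the group were high enough to test and 8 were called higher. Over all 35557 transcripts tested, 2.10% were called higher. Each of the 14 but NM_009814.3 of Casq2 passed the limit of 0.1 FPKM through its 5-AZA values alone. The count therefore describes these rows and supports nothing further. Cacng1, Casq1, Hrc, Sln and Trdn have 1 row each. Of the pump Atp2a1, the predicted transcript XM_006507268.1 held 73.7% and 72.2% of the summed level in replicates 101 and 102 and the curated NM_007504.2 the rest, and both were called. The level of Cacna1s was split between NM_014193.2, with 46.7% and 59.0%, and XM_006529106.2, with 51.9% and 40.9%, and neither was called although their sum was. In Jph2, NM_021566.2 held 92.6% and 68.3% and was called. Ryr1 has 12 rows, of which XM_006539689.3 held 78.9% and 50.4% and XM_006539692.3 11.9% and 31.4%, and none was called. The curated row of Ryr1, NM_009109.2, held 2.60% and 6.38%, so the level of this gene came mostly from predicted transcripts. Overlapping transcripts of a gene share most of their sequence, so the split among them is uncertain. Without untreated replicate 1 or 2, 4 and 3 of the member transcripts were called. Without 5-AZA replicate 101 or 102, limma called 0 of them, while 14 of 14 and 11 of 11 tested had an unadjusted p below 0.05.

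**Figure D5:**
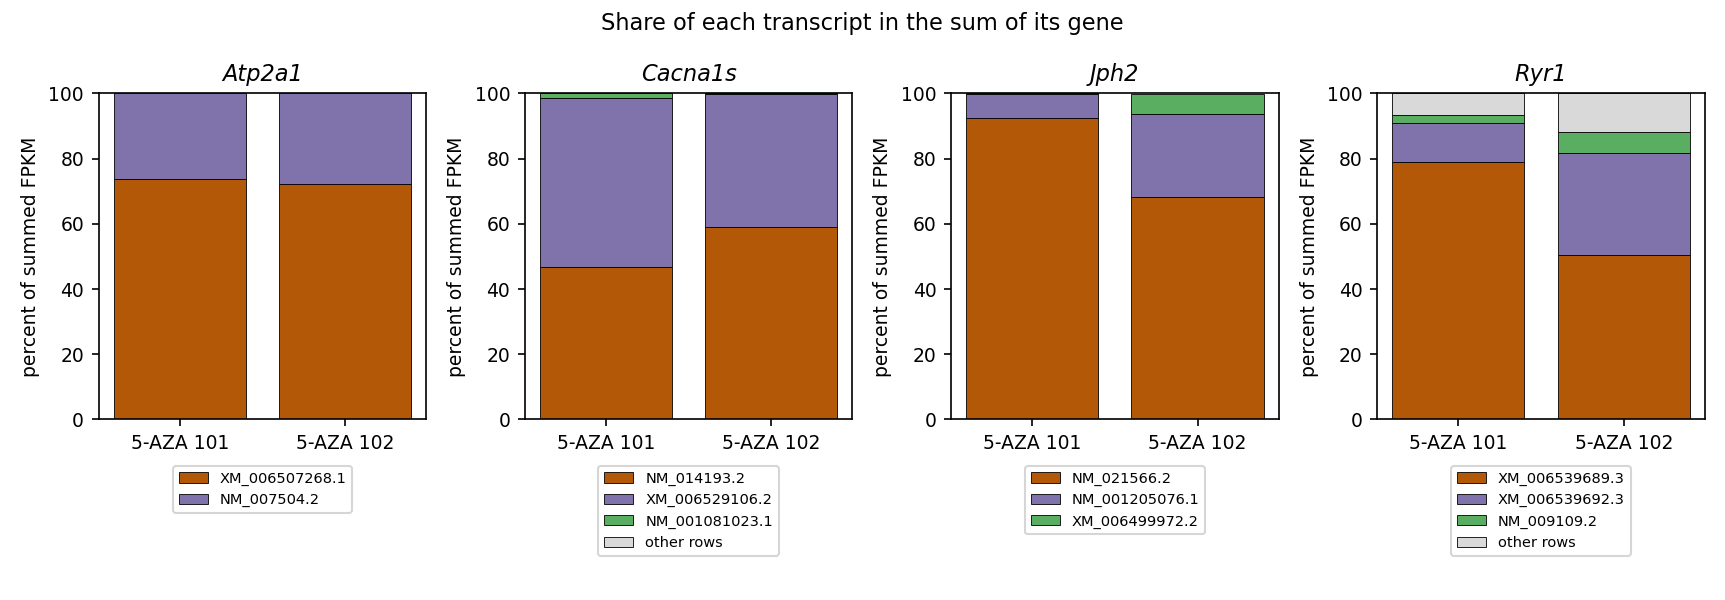
Percent of the summed FPKM of Atp2a1, Cacna1s, Jph2 and Ryr1 held by each transcript row in the 5-AZA samples. The split of Atp2a1 is alike in both samples (73.7% and 72.2% for XM_006507268.1), and the largest transcript of Ryr1 falls on 78.9% in one and 50.4% in the other.

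A circRNA, a closed RNA ring read through its back-spliced junction, was listed for Ryr1 alone among the 10 genes. circRNA_3547 spans chr7:29035980-29040893 on the − strand (coordinates that match GRCm38), within the 121840 bases of Ryr1, and is listed as sense-overlapping with a length of 650 bases. It was listed at 0 in both untreated samples and at 0.0538 and 0.0745 RPM, junction reads scaled to the reads of the library, in 5-AZA replicates 101 and 102, which are 5 and 7 junction reads where the smallest value of each library is taken as 2 reads. On that reading, 100% of the values were whole reads within 0.01. The log2 change of 1.99 ± 0.36 (SE; limma, adjusted p = 0.119) was not called. No circRNA was called among 1360 tested, while 251 had an unadjusted p below 0.05 in limma, and 6.69% of those tested had one in the higher direction. Of the other calcium handling genes, 16 hosted 35 circRNAs, of which 10 were tested, 1 had an unadjusted p below 0.05 and 0 were called.

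Long noncoding RNAs at these loci were scarce. At 7 of the 10 loci, 26 lncRNAs overlapped the gene on either strand, and 17 of them were below 0.001 FPKM in every sample. The highest value was 0.310 FPKM in untreated replicate 1, for NONMMUT003828.2 at Casq1, which had 0.196 FPKM in untreated replicate 2 and 0.0771 and 0.213 FPKM in the 5-AZA samples, so that its groups overlapped. Reads of overlapping features on the same strand cannot be told apart.

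The annotation listed beside the values ties the group together in ways that the choice of names partly fixes. Of the 10 genes, 8 carry the term sarcoplasmic reticulum, as do 0.285% of the 20677 annotated genes. Z disc is carried by 5 (0.590% of the annotated genes) and calcium ion binding by 5 (2.92%). The term junctional membrane complex holds 8 genes in all, of which Casq2, Jph2, Ryr1 and Trdn are 4. By Euclidean distance over the 4 samples to the median log2 profile of the 10 genes, the most alike genes were Tuba3a (0.0973), Myh4 (0.264), Lmod2 (0.285), Rhox2b (0.315) and Pet2 (0.323). Tuba3a and Rhox2b have near-identical copies in the genome, so their own levels are uncertain.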

How the data were processed

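After removal of ribosomal RNA, stranded libraries were made from total RNA of 2 untreated and 2 5-AZA samples and sequenced. The submitters' processing notes name Trimmomatic, HISAT2, Bowtie2 2.2.9, eXpress 1.5.1 and build mm9. The authors deposited FPKM per mRNA and lncRNA transcript, and RPM per circRNA. The circRNA coordinates fit GRCm38 rather than mm9: 2388 of 2388 host transcripts overlapped their own RefSeq GRCm38.p6 gene. Of 131850 lncRNAs, 4692 began or ended on a RefSeq gene end of that build, and 29 did when moved by 1000 bases.

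Transcripts were summed per gene, and log2(FPKM + 0.1) of genes with a mean of at least 0.1 FPKM was fitted with limma 3.58.1 (eBayes with trend; R 4.3.3), all 4 samples in each fit, adjusted after Benjamini and Hochberg over all genes. Transcripts were fitted alike. The circRNAs detected in at least 2 samples were fitted with 0.0213 RPM added. The study's own test was made for counts, and no count test was run on FPKM. Sums and figures used Python 3.11.15, pandas 2.3.3 and matplotlib 3.10.9. Whether strand was used in counting is not given in the sources used here.

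The genes, lists and naming rule were chosen with earlier results of these data known. Named were all 10 genes with their transcripts and circRNA, of each list the called genes with the 4 largest changes in each direction, relatives of at least 1 FPKM, the highest and the 0 members of each marker list, and the 5 nearest genes. Further genes were named after their values were seen. Results on 2 genes of the lists are not reported here. Alternatives were other pseudocounts, filters, scalings, transcript choices and the omission of each sample.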

Additional observations from a re-analysis of the deposited data

How the results depend on the processing

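The 9 called members kept their direction and call under the alternatives that tested them, except Ryr1 with 1 FPKM added (0.92 on the log2 scale), and Sln was called without 5-AZA replicate 101 alone. With 1 FPKM added, the median log2 change of the 10 genes was 1.91, 0 relatives outside skeletal fibres and 2 genes of exit and buffers were called, and 875 genes were called higher and 86 lower over all genes. With 0.01 FPKM added the median was 7.42. Without a filter, 0 relatives, 0 mitochondrial genes and 1 excitability gene were called, and 83 genes were lower over all. At a mean of at least 1 FPKM, 5 members could be tested and 5 were called, with a median of 6.74, beside 0 relatives, 2 genes of exit and buffers and 845 genes higher over all. Quantile normalization gave a median of 4.05, 0 relatives, 0 small pump regulators, and 1041 genes higher and 886 lower over all; it moved the median change of all genes from 0.05 to -0.12, and centring on sample medians moved it to -0.06. The highest transcript per gene left 2 calls of exit and buffers. Curated transcripts alone gave a median of 5.30, with 8 of the 9 members tested called and Ryr1 too low to test. They also gave 1 call of store-operated entry, 2 of exit and buffers, and shares of 10.4% for Atp2a1, 78.3% for Ryr1 and 92.1% for Cacna1s. The cause of these shifts was not tested.

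Leaving out each sample in turn gave ranges of 4.80 to 5.12 for the median, 6 to 13 calls for triad partners, 0 to 1 for relatives, 0 to 1 for small pump regulators, 1 to 3 for store-operated entry, 2 to 3 for exit and buffers, 0 to 1 for mitochondrial uptake, 1 to 3 for excitability, 733 to 1617 genes higher and 52 to 184 lower over all, and 0 to 4 member transcripts. Where that left 1 sample in a group, the lone sample was assumed to vary like the other group. No paired analysis was possible because the groups share no replicate numbers. The planned edgeR alternative for circRNAs was not run: each library's RPM values rise in equal steps, but the step taken as 1 read is the smallest value listed divided by 2, no value equals 1 step, and no count table was used to check it. Depth limits the circRNA of Ryr1, which rests on 5 and 7 reads, and 2 samples per group limit every p-value.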
